A study of Mus musculus with 7 samples.

Results

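The peroxide and superoxide defence genes described here are 10 of the 30879 genes in a single-cell table of mouse thyroid. They were chosen by name: the superoxide dismutases Sod1, Sod2 and Sod3, the catalase Cat, the glutathione peroxidases Gpx1, Gpx3 and Gpx4, the peroxiredoxins Prdx1 and Prdx5, and the thioredoxin reductase Txnrd1. The study sequenced single cells of primary thyroid tissue (2 samples) and of mouse thyroid follicular cell organoids (TFCOs) at early passage (2 samples) and late passage (3 samples). Live, DAPI-negative cells were sorted into 384-well plates and sequenced by SORT-seq, in which each captured RNA molecule carries a unique molecular identifier (UMI), so that a count of UMIs is a count of molecules. All samples came from wild-type C57BL/6 mice, and no group carried a further treatment. The ages of the animals are not given in the sources used here. TFCOs were grown in basement membrane extract in a medium with B27, N-acetylcysteine, nicotinamide, R-spondin 3, A83-01, forskolin, EGF and FGF10. N-acetylcysteine is an antioxidant that was present in every TFCO culture, whereas the tissue cells were dissociated without culture, so culture in this medium and the origin of the cells cannot be told apart.

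Thyroid follicular cells (TFCs) make hydrogen peroxide at their apical membrane, through the dual oxidases Duox1 and Duox2, because the coupling of iodide to thyroglobulin (Tg) needs it. Superoxide dismutases convert superoxide to hydrogen peroxide, and catalase, glutathione peroxidases and peroxiredoxins reduce the peroxide to water. Glutathione peroxidases draw on glutathione and most peroxiredoxins on thioredoxin, which thioredoxin reductase keeps reduced. Gpx1, Gpx3, Gpx4 and Txnrd1 encode selenoproteins, which carry selenocysteine at a UGA codon.

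The 7 samples held 1406925 to 4703472 UMIs each, and 2035 of 2590 cells had at least 1000 UMIs and were kept. Cells were clustered without the members and named from marker genes, which gave 48 and 45 TFC-like cells in the 2 tissue samples and 205 to 331 in each TFCO sample. The 15 TFC markers helped to name this class, so their presence is no separate check of the name. Each had at least 1 UMI in the TFC-like cells of every sample, and 11 to 14 were found in at least 10% of those cells. Some kept TFCO cells were left unnamed and out of the comparisons. They were 29 in late replicate 2, 30 in early replicate 1 and 1 each in late replicate 3 and early replicate 2. The median TFC-like cell held 2331 and 2229 UMIs in tissue and 5015 to 12924 in TFCOs. In tissue replicate 2, the 2 deepest TFC-like cells held 76.4% of all UMIs of that class, so levels are given as the mean over cells of the UMIs per 10000 UMIs of a cell, in which every cell has the same weight. The same barcodes were used on every plate, and all 384 were found in at least 2 of the 7 samples. The labels give 3 late samples, while the series text speaks of 2 biological replicates for each kind of sample, so some late samples may share a culture or animal. All 7 were used as labelled, n counts samples, and p-values measure only the spread between these samples, which may be technical. Levels are not compared between genes, because capture differs from gene to gene.

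Among tissue cells, the members fell into distinct patterns over the 5 named cell classes. These are given as a description because classes are clusters of the same cells. Another 83 and 75 kept tissue cells were left unnamed, with Tg at 36.2 and 61.4 UMIs per 10000, and are not described. Sod1, the cytosolic superoxide dismutase, was highest in TFC-like cells, at 3.84 and 4.54 UMIs per 10000 in replicates 1 and 2. The 4 other named classes (stromal-like, immune-like, endothelial-like, mural-like) lay between 0.533 and 1.86, below both TFC-like values. Prdx5, a peroxiredoxin of mitochondria, peroxisomes and cytosol, was also highest in TFC-like cells, at 2.17 and 2.24. The next class for Prdx5 was immune-like cells at 1.37 and 0.552, and endothelial-like cells had 0.384 and 0.371. Sod1 and Prdx5 were therefore the members whose TFC-like values lay above every other named class in both tissue samples.

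Gpx1, the cytosolic glutathione peroxidase, was highest in immune-like cells, at 6.12 and 5.74 UMIs per 10000. It had a UMI in 78.8% and 83.3% of these cells, and its other classes lay between 0.304 and 1.77. Gpx3, the secreted glutathione peroxidase, was highest in stromal-like cells, at 7.57 and 6.85, with a UMI in 13 of 15 and 3 of 6 cells. Mural-like cells followed for Gpx3 at 0.954 and 1.12, while TFC-like cells had 0.368 and 0.246. In both genes the leading class was the same in the 2 tissue samples, although the stromal-like class was small.

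Sod3, the extracellular superoxide dismutase, was found in stromal-like cells at 2.26 and 2.85, in mural-like cells at 2.09 and 1.10 and in TFC-like cells at 1.59 and 0.810. The ranges of the mural-like and TFC-like classes overlapped. Endothelial-like cells had 0.123 and 0.0577, and 0 of 33 and 0 of 24 immune-like cells had a Sod3 UMI, with upper bounds of the 95% exact interval at 10.6% and 14.2%. Gpx4, which reduces lipid peroxides in membranes, was at 1.52 and 1.09 in TFC-like cells, 0.992 and 1.58 in mural-like cells and 0.382 and 2.19 in stromal-like cells, so these 3 classes were not separated. Endothelial-like and immune-like cells had Gpx4 between 0.276 and 0.628, a range that also holds the lower stromal-like value. Sod2, the mitochondrial superoxide dismutase, was highest in mural-like cells at 1.19 and 0.793, but its stromal-like values of 0.965 and 0 spanned most of the other classes. For Prdx1, the main cytosolic peroxiredoxin, no class stood apart between 0.636 and 2.71, and Cat and Txnrd1 were sparse, at 0 to 0.427 and 0 to 1.41. As a measure of free RNA in the wells, Tg was at 15.5 to 29.5 UMIs per 10000 in the named classes other than TFC-like, against 1590 and 1190 in TFC-like cells.

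**Figure D1:**
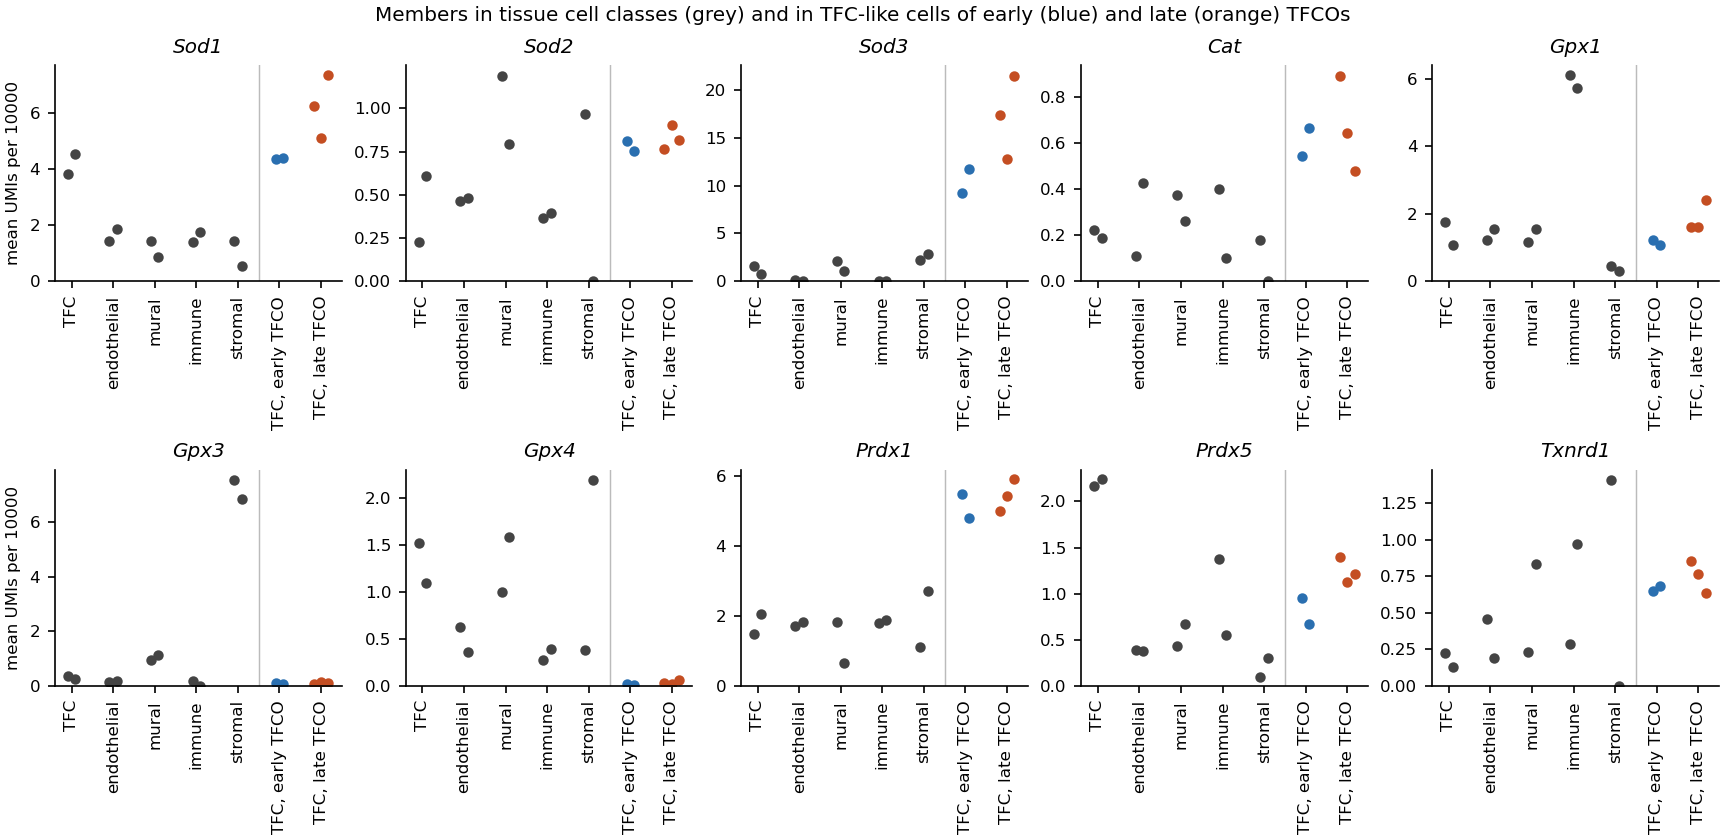
Level of each member (mean UMIs per 10000 UMIs of a cell, linear axis) in the tissue classes (grey), early TFCOs (blue) and late TFCOs (orange), 1 point per sample. Sod3 lies between 9.25 and 21.5 in the TFCO samples and at 1.59 and 0.810 in tissue TFC-like cells, while Gpx1 peaks in immune-like and Gpx3 in stromal-like tissue cells.

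The comparison of TFCOs with tissue asked how far the TFC-like cells of the cultures kept the levels of TFC-like cells in the gland. Sod3 and Prdx1, an extracellular and a cytosolic enzyme, were higher in TFCOs, as was Txnrd1, and Prdx5 was lower. Of the 10 members, 7 passed the filter on low values, which takes the mean of the tissue, early and late means, and 4 passed the test, 3 of them higher and 1 lower. This filter weighs TFCOs more than tissue. Txnrd1 (0.175 in tissue, 0.716 in TFCOs) and Sod2 (0.418 and 0.81) therefore passed it through the TFCO groups, and Gpx4 (1.31 and 0.0266) was left out. With no filter, all 10 were tested and the 4 called were Sod3, Prdx1 and Txnrd1, higher, and Gpx4, lower (−1.16, adjusted p = 0.0055, limma), while Prdx5 was not called (adjusted p = 0.056, limma). Of all 4342 genes tested, 27.5% were called, 21.2% higher in TFCOs and 6.31% lower. The median of the log2 differences was 0.36 over the 7 members tested and 0.22 over all genes tested. When each sample was centred on its median gene, the calls over all genes were 353 higher and 405 lower, in place of 920 and 274, and with no filter they were 474 higher and 320 lower, so the share of higher calls depends on the scaling and the filter.

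Sod3, on chromosome 5 (GRCm38, chr5:52363791-52371418, plus strand), was at 17.4, 12.8 and 21.5 UMIs per 10000 in late TFCOs, 9.25 and 11.7 in early TFCOs and 1.59 and 0.810 in tissue TFC-like cells. Every TFCO sample lay above both tissue samples, with a mean of 14.5 ± 4.89 (SD, n = 5) against 1.20 ± 0.550 (n = 2). The difference was 2.72 on the log2(mean + 1) scale (SE 0.37, adjusted p = 0.00078, limma with Benjamini-Hochberg adjustment). The ratio of the group means was 12.1. The unnamed TFCO cells, left out here, had Sod3 at 22.2 in late replicate 2 and 11.9 in early replicate 1. The tissue means rested on 20 and 62 Sod3 UMIs. A Sod3 UMI was found in 31.2% and 20% of tissue TFC-like cells and in 86.9% to 98.8% of TFCO TFC-like cells. With every cell thinned to 1000 UMIs, which removes the difference in depth, the shares were 12.5% and 6.67% in tissue against 55.1% to 72.2% in TFCOs. Endothelial-like tissue cells, which served as background, had a Sod3 UMI in 1.12% and 0% of thinned cells, and in 4.49% and 2.22% before thinning. The highest Sod3 level in any tissue class, 2.85 in stromal-like cells, was also below the lowest TFCO sample. The Sod3 call was lost in 1 alternative, where tissue and TFCO cells were clustered together and 3 and 4 tissue TFC-like cells were left (3.55, adjusted p = 0.54, limma).

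Prdx1 (chr4:116685544-116700822, plus strand) was at 5.00, 5.43 and 5.93 in late TFCOs, 5.49 and 4.81 in early TFCOs and 1.48 and 2.04 in tissue TFC-like cells. The groups did not overlap, and the difference was 1.20 on the log2 scale (SE 0.26, adjusted p = 0.0082, limma). With cells thinned to 1000 UMIs it was 0.83 (adjusted p = 0.081, limma), and with UMIs summed over cells 0.88 (adjusted p = 0.16, limma), so the call was lost under both settings. When the 2 deepest cells of each tissue sample were left out of the sum, it was 1.05 (adjusted p = 0.024, limma). Txnrd1 (chr10:82833951-82897712, plus strand), the cytosolic thioredoxin reductase, was at 0.854, 0.762 and 0.634 in late, 0.646 and 0.685 in early TFCOs and 0.223 and 0.127 in tissue. The tissue values rested on 5 and 38 UMIs found in 5 and 4 cells. The difference was 0.54 (SE 0.14, adjusted p = 0.017, limma), and 0.35 (adjusted p = 0.1, limma) when samples were centred on their median gene, 0.49 (adjusted p = 0.12, limma) with thinned cells and 0.18 (adjusted p = 0.54, limma) with summed UMIs.

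Prdx5 (chr19:6906697-6910106, minus strand), one of the members highest in TFC-like cells of the gland, was at 2.17 and 2.24 in tissue and at 1.4, 1.12 and 1.21 in the late samples and 0.947 and 0.670 in the early ones. Every TFCO sample lay below both tissue samples, by 0.67 on the log2 scale (−0.67, SE 0.19, adjusted p = 0.022, limma). It was −0.86 after centring. The call was lost with thinned cells (−0.56, adjusted p = 0.15, limma) and with summed UMIs (−0.87, adjusted p = 0.07, limma), and the sum without the 2 deepest cells of each tissue sample gave −0.95 (adjusted p = 0.014, limma).

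The other members tested did not pass. Sod2 (chr17:13006846-13040063, plus strand) was at 0.229 and 0.608 in tissue and 0.754 to 0.905 in TFCOs, a difference of 0.36 (SE 0.16, adjusted p = 0.1, limma). Sod2 passed the filter through the TFCO groups, where it was high, which favours a higher call. Without tissue replicate 2, the difference was 0.55, but the tissue group was then 1 sample whose spread is taken from the other groups. Sod1 (chr16:90220754-90226329, plus strand) was at 3.84 and 4.54 in tissue and 4.36 to 7.38 in TFCOs, and its difference of 0.27 had an interval of 2 SE from −0.32 to 0.85. Gpx1 (chr9:108338903-108340343, plus strand) was at 1.77 and 1.07 in tissue and 1.07 to 2.41 in TFCOs. Its difference of 0.05 had an interval from −0.40 to 0.50 and changed sign with the scaling, to −0.14 after centring. For Sod1 and Gpx1 the groups overlapped.

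Cat and Gpx3 were under the filter in this comparison and are described only. Cat (chr2:103453849-103485160, minus strand), the peroxisomal enzyme that splits hydrogen peroxide, was at 0.222 and 0.188 in tissue, from 3 and 28 UMIs, and at 0.480 to 0.892 in TFCOs. Without late replicate 3 Cat passed the filter, through the TFCO groups where it was high, and the test (0.48, adjusted p = 0.036, limma). The level of Cat had a correlation of 0.060 between cells of different plates that share a barcode, just above a limit of 0.05 that 4194 of 19498 genes exceeded. Gpx3 (chr11:54902453-54910377, plus strand) was at 0.368 and 0.246 in tissue TFC-like cells, from 5 and 10 UMIs, and at 0.05 to 0.147 in TFCOs. Of the 7 members tested, 4 had every TFCO sample above both tissue samples and 1 had every one below, against 40.4% and 10.4% of all genes tested. Sod2 and Txnrd1, among these 4, passed the filter through the TFCO groups, so the count is tilted upward. Over all 10 members, filtered or not, it was 5 above and 3 below, for which no share over all genes was taken.

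Markers of other cell types moved with the same groups. In TFC-like cells, the 10 immune markers summed to 11.0 and 5.21 UMIs per 10000 in tissue and 0.245 to 0.889 in TFCOs, with 2 and 0 markers at 0 in tissue (Lyz2 and Coro1a in replicate 1) and 2 to 4 in TFCOs. The 8 stromal markers summed to 2.91 and 1.89 in tissue, where Pdgfra was at 0 in both samples and Dpt in replicate 2, and to 0.250 to 0.750 in TFCOs, where none was at 0. Mural markers summed to 2.86 and 4.87 in tissue against 0.334 to 1.47, and endothelial markers to 14.7 and 18.5 against 6.91 to 10.6, with Egfl7 at 0 in both tissue and all 3 late samples and Cldn5 in tissue replicate 1 and all 5 TFCO samples. C cell markers summed to 3.36 and 2.52 against 0.0524 to 0.172, erythroid markers to 4.54 and 0.656 against 0 to 0.03, and parathyroid markers to 1.36 and 1.33 against 0.559 to 1.55. Tek was the highest endothelial marker in every sample, at 6.5 and 5.79 in tissue and 5.32 to 8.04 in TFCOs, so it made up most of the TFCO sums. Among parathyroid markers, Pth was highest in tissue, at 0.805 and 1.05, and Casr in TFCOs, at 0.559 to 1.5. Pth was at 0 in late replicates 1 and 3 and in early replicate 1. Tg was at 1590 and 1190 in tissue against 64.8 to 154 in TFCOs. The part of these cells and of free RNA in the member differences was not tested.

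**Figure D2:**
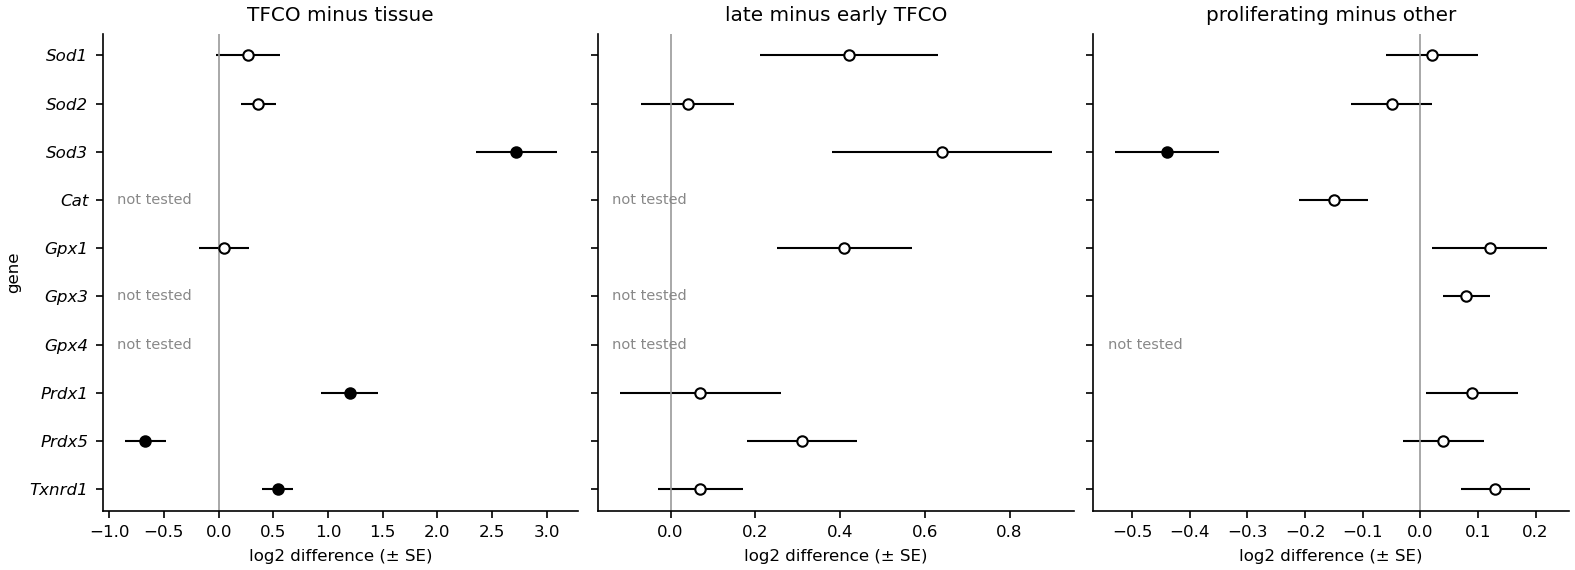
Difference of each tested member on the log2(mean UMIs per 10000 + 1) scale with its SE, for TFCO against tissue, late against early TFCOs and proliferating against other TFCO cells; filled points passed an adjusted p of 0.05. Sod3 passed in the first comparison at 2.72 and in the third at −0.44, and no member passed in the second.

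Gpx4 needs its near-identical copy beside it. Gpx4 (chr10:80047166-80056439, plus strand) had a level of 1.52 and 1.09 in the TFC-like cells of tissue, against 0.0285, 0.0202 and 0.0576 at late passage and 0.0162 and 0.0105 at early passage, and its mean over groups was under the filter. Beside the fit with no filter, it passed the filter and the test with at least 2000 UMIs a cell (−1.42, adjusted p = 0.00027, limma), with UMIs summed (−1.53, adjusted p = 0.00042, limma) and with thinned cells (−1.31, adjusted p = 0.00065, limma). Without tissue replicate 2 the difference was −1.30, where 1 tissue sample is left and the other groups supply the spread. Wherever Gpx4 passed the filter, it did so through tissue, the group where it was high, which favours a lower call. The table also lists Gpx4-ps2, a transcribed processed pseudogene on the same chromosome (chr10:45875291-45876086, plus strand). Over the 733 aligned bases of both transcripts, identity was 99.7%, with 2 substitutions, C384T and C699T, counted from the 5′ end of the Gpx4 transcript and with the Gpx4 base first. Of all stretches of 50 bases in the last 500 bases of Gpx4, where this 3′ method reads, 88.9% were shared with another gene. The windows around the 2 substitutions are shown because they are the places where the aligned parts of the copies differ, with the differing base in capitals. The first lies in 1 coding exon (chr10:80054704-80054744, GRCm38, plus strand) and ends just past the in-frame tga that encodes selenocysteine, and the second crosses an exon junction.
Gpx4 at C384T: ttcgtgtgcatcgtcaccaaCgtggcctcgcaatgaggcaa
Gpx4-ps2 at C384T: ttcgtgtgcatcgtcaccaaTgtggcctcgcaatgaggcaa
Gpx4 at C699T: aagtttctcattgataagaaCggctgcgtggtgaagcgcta
Gpx4-ps2 at C699T: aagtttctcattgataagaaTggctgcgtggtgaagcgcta

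In tissue TFC-like cells, 33.3% (22 of 66, 95% exact interval 22.2 to 46.0) and 34.7% (124 of 357, 29.8 to 39.9) of the UMIs of both rows were listed under Gpx4. At late passage the share stood at 3.19%, 1.81% and 4.09%, and at early passage at 1.4% and 0.741%, and the highest upper bound was 6.65%. The intervals cover counting error only and pool the UMIs of all cells. In tissue replicate 2, the 2 deepest cells held 76.4% of all TFC-like UMIs, so its share may largely describe those cells. The other tissue classes had shares like that of tissue TFC-like cells, with 25.4% and 32.5% in endothelial-like and 30.0% and 43.2% in mural-like cells. The intervals of the tissue classes overlapped each other, and those of TFC-like cells did not overlap between tissue and TFCO samples. How reads that match both copies were counted is not given in the sources used here, and its part in the split was not tested.

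Added together, Gpx4 and Gpx4-ps2 stood at 4.59 and 3.42 in tissue and 0.998 to 1.58 in TFCOs. The sum, an alternative chosen after seeing the data, was lower in TFCOs by 1.18 on the log2 scale (−1.18, SE 0.21, adjusted p = 0.0035, limma), and Gpx4-ps2 alone by 0.76 (−0.76, SE 0.20, adjusted p = 0.016, limma). Every TFCO sample lay below both tissue samples for the sum. Ftl1, the ferritin light chain and another gene with near-identical copies, had 80.9% of its end shared and was at a mean of 2.05 in tissue and 0.0856 in TFCOs. Its copy Ftl1-ps1 was at 0.619 and 0.766 in tissue and 0.396 to 0.66 in TFCOs, so the split between these rows also differed. The part of read counting in the Ftl1 difference was not tested. Of the other members, Sod1 shared 30.2% of its end with Gm8566, which was listed at 0.029 to 0.564, and Sod2 shared 5.1%.

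**Figure D3:**
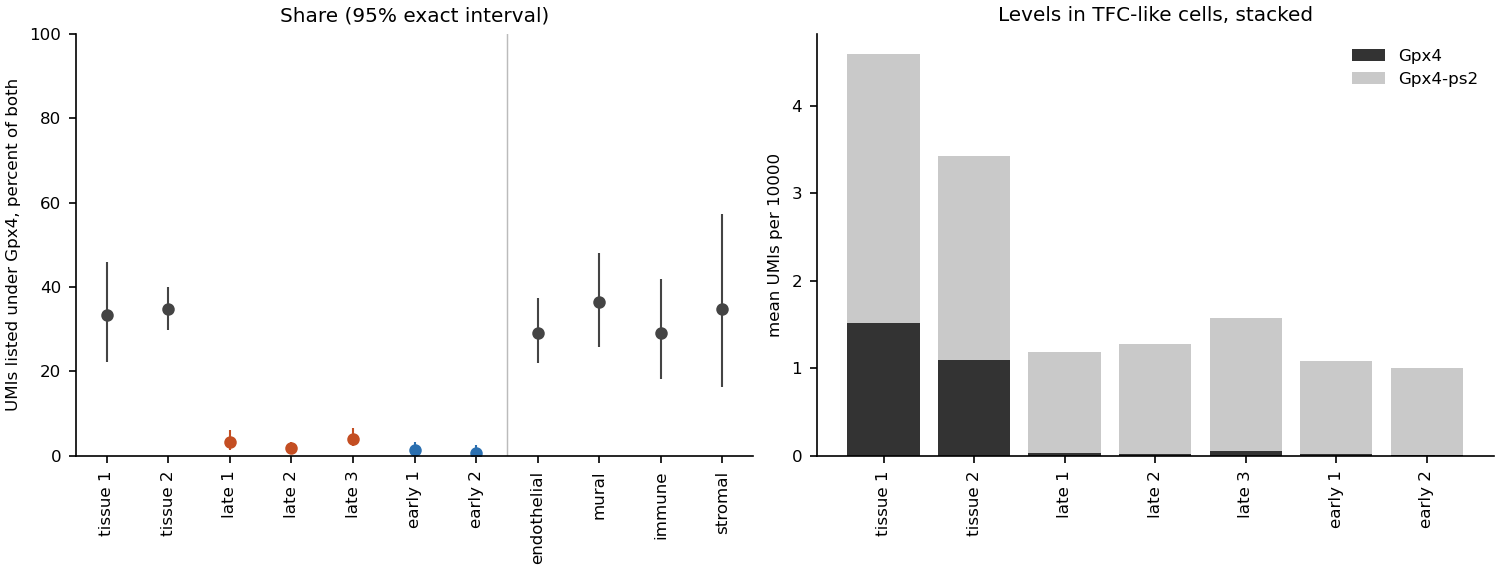
Left, share of the UMIs of Gpx4 and Gpx4-ps2 that is listed under Gpx4 in TFC-like cells of each sample, with the 95% exact interval; right, stacked level of both rows in UMIs per 10000. The tissue samples have 33.3% and 34.7% and a sum of 4.59 and 3.42, and the TFCO samples at most 4.09% and 1.58.

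No member passed the test between passages. Of the 7 members tested in late against early TFCOs, 0 passed the adjusted threshold (limma) and 3 had an unadjusted p under 0.05, where 0.023% of all 4342 genes were called and 872 had an unadjusted p under 0.05. The 1 gene called, named after its values were seen, was the pseudogene Rpsa-ps10, at 6.26, 5.40 and 7.27 at late and 0.482 and 0.680 at early passage. Sod3, with the values given above, differed by 0.64 (SE 0.26, adjusted p = 0.21, limma). Sod1 was at 6.26, 5.12 and 7.38 against 4.36 and 4.41, a difference of 0.42 (SE 0.21, adjusted p = 0.28, limma). Gpx1 was at 1.60, 1.60 and 2.41 against 1.23 and 1.07, a difference of 0.41 (SE 0.16, adjusted p = 0.2, limma). In these 3 members and in Prdx5 every late sample lay above both early samples, which is 4 of the 7 tested, against 17.6% of all genes tested. Prdx1, Sod2 and Txnrd1 differed by 0.07, 0.04 and 0.07 and their passages overlapped.

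Within TFCOs, proliferating cells were compared with the other TFC-like cells of the same culture. Cells with a UMI in 3 or more of 10 proliferation markers were called proliferating, and they were 26 of 307, 130 of 331 and 52 of 241 TFC-like cells in late and 99 of 205 and 33 of 312 in early TFCOs. Sod3 was the member that passed the test, lower in proliferating cells, 1 of the 9 members tested. Of all 14195 genes tested, 2.17% were called, 1.82% higher and 0.345% lower. Sod3 was at 14.6, 10.6 and 14.8 UMIs per 10000 in the proliferating cells of late TFCOs and 17.7, 14.2 and 23.3 in the other cells. In early TFCOs it was at 8.18 and 7.65 against 10.3 and 12.2. It was lower in 5 of 5 samples, by 0.44 on the log2 scale (−0.44, SE 0.09, adjusted p = 0.0099, limma). The proliferating cells were deeper, with median UMIs of 10780 to 19642 against 4505 to 11987, and the class takes in cells by the number of markers seen, so depth moved with the class.

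Cat was also lower in 5 of 5 samples (−0.15, adjusted p = 0.3, limma), and Prdx1 (0.09, adjusted p = 0.67, limma) and Txnrd1 (0.13, adjusted p = 0.4, limma) were higher in 5 of 5, where 8.01% of all genes tested were higher and 5.83% lower in all 5 samples. None of these 3 passed the test. The Tg level was also lower in proliferating cells, by 0.63 (−0.63, adjusted p = 0.0013, limma). The call of Sod3 was lost when 2 markers were enough (−0.23, adjusted p = 0.21, limma), when no filter on low values was used (−0.44, adjusted p = 0.14, limma) and without late replicate 3 (−0.39, adjusted p = 0.079, limma). The difference between the classes did not depend on passage for any of the 9 members at the adjusted threshold (limma), where 0.00704% of genes were called. The 1 member with an unadjusted p under 0.05 was Gpx1 (−0.49, SE 0.16, adjusted p = 0.7, limma).

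**Figure D4:**
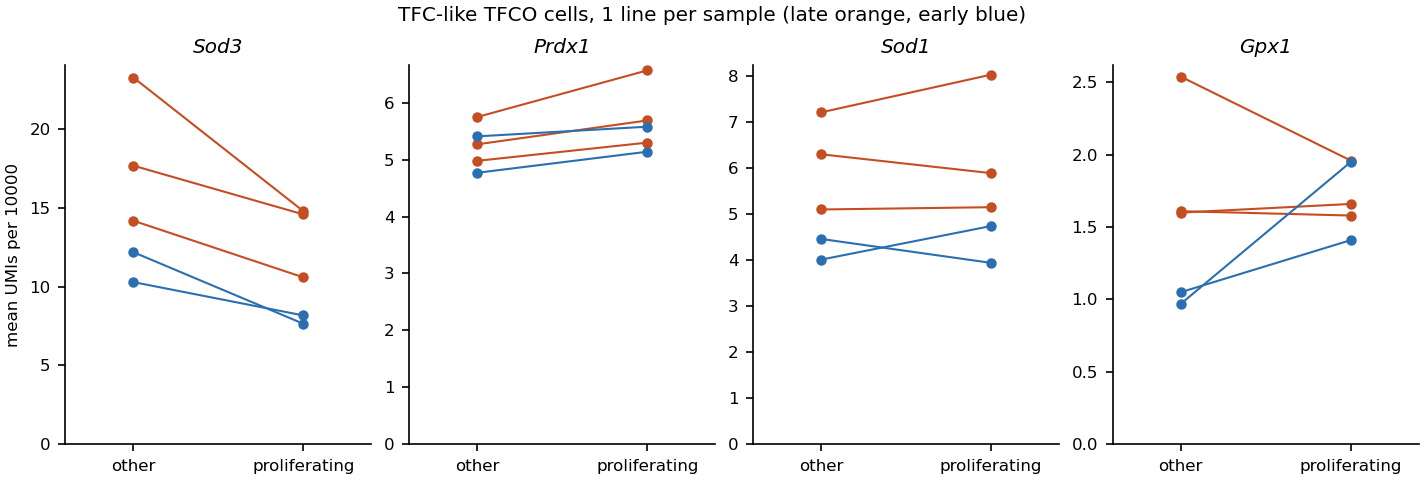
Level of Sod3, Prdx1, Sod1 and Gpx1 (mean UMIs per 10000) in other and in proliferating TFC-like cells, with 1 line per TFCO sample. The Sod3 line falls in each of the 5 samples, from 10.3 to 23.3 in other cells to 7.65 to 14.8 in proliferating cells.

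The genes around the members were read from 5 lists, whose counts stand against the 21.2% of all genes tested that were higher and the 6.31% that were lower in TFCOs. Of 9 other peroxide and superoxide enzymes, 5 were tested in TFCO against tissue and 2 were higher, both peroxiredoxins: Prdx2 (mean 0.512 in tissue and 1.30 in TFCOs) and the mitochondrial Prdx3 (0.490 and 1.43), with a list median of 0.51. Prdx3 passed the filter through the TFCO groups, and passing through the groups where a gene is high favours a call in that direction. Of 17 genes of thioredoxin and glutathione supply, 8 were tested and 3 were higher. These were Gclm, the modifier subunit of the rate-limiting enzyme of glutathione synthesis (2.27 and 5.83), Txnip, a thioredoxin-binding protein (0.627 and 2.24), and Msrb1, a methionine sulfoxide reductase (0.238 and 0.887), which passed the filter through the TFCO groups. The list median was 0.32, beside 0.22 over all genes tested. Gclm and Txn1, thioredoxin itself, were also higher in proliferating cells, by 0.53 (adjusted p = 0.0024, limma) and 0.46 (adjusted p = 0.0034, limma), in 5 of 5 samples each.

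Another list of 16 genes was drawn up by name around NRF2, a transcription factor of the oxidative stress response. Of these, 11 were tested, 3 were higher and 1 was lower, near the share over all genes. The list also holds Hmox2, Sesn1 and Sesn3, while Gclm, Txnrd1 and Prdx1 stand elsewhere, so its count is not one of NRF2 targets. Whether these genes respond to NRF2 in these cells was not tested. Sesn3 (0.367 and 1.89), Taldo1, which is an enzyme of the pentose phosphate pathway (1.09 and 2.36), and Me1, malic enzyme (0.846 and 1.83), were higher and Ftl1 was lower, with a list median of 0.26. Sesn3 passed the filter through the TFCO groups and Ftl1 through tissue, and the Ftl1 call carries the limit of shared copies given above. Among the genes of peroxide production, Cyba, a subunit of NADPH oxidases, was lower (3.88 and 0.702). Duox2 and its maturation factor Duoxa2 were under the filter, at a mean of 0.720 and 0.463 in tissue and 0.318 and 0.0658 in TFCOs. Of 11 selenoprotein synthesis genes and other selenoproteins, 6 were tested, Selenof (1.33 and 3.38) and Selenot (0.255 and 1.34) were higher, and Dio1, the type 1 deiodinase (2.01 and 0.143), and Sepsecs, which makes selenocysteinyl-tRNA (2.01 and 0.655), were lower. Selenot passed the filter through the TFCO groups and Dio1 through tissue. No gene of the 5 lists was called in late against early TFCOs.

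The core letters of the antioxidant response element, TGACNNNGC on either strand, were searched from 250 bases before to 50 bases after the RefSeq start sites (GRCm38.p6). They were in 12.4% of 32851 such windows and in 14% of 27025 genes. Of the 9 members in the table of promoters, Sod1, Prdx1 and Txnrd1 held them, 3 of 9, and Sod3 is not in that table. The 3 matches are shown because 2 of these members were higher in TFCOs and Sod1 was not called. Capitals mark the match, which in all 3 lies on the reverse strand, and the match of Prdx1 also holds TGAGTCA, the letters of an AP-1 site. The windows are Sod1 (56 bases before the start, chr16:90220686-90220734), Prdx1 (133 bases before, chr4:116685446-116685494) and Txnrd1 (92 bases before 1 of 3 starts, chr10:82859094-82859142), all printed from the plus strand.
Sod1: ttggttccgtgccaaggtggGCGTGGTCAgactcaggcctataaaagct
Prdx1: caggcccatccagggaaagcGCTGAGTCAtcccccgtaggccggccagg
Txnrd1: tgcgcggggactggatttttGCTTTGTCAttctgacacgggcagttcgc

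The genes whose levels were most like those of the members were read over 14 profiles, 1 for each sample and named class of at least 10 cells. Pearson's r is given as a description, since profiles share libraries and depth. The 6 stromal-like cells of tissue replicate 2 were left out, so stromal-like cells gave 1 profile. Sod3 was most like Mesd (0.97), Me1 (0.96) and Appl2 (0.95). Sod1 was most like Cybrd1 (0.98), Kcnk1 (0.98) and Wfdc2 (0.97), and Prdx1 like Tmem64 (0.97), Fam117a (0.97) and Myo5c (0.96). Gpx3 was most like the collagen genes Col1a1 (0.99) and Col1a2 (0.98) and Abca8a (0.97). Gpx3 was at 7.57 in the 1 stromal-like profile and at most 1.12 in the others, so these values rest largely on that profile. Gpx1 was most like Capza2 (0.94), H2-DMb1 (0.94) and Ptk2b (0.92). Prdx5 was most like Sec61b (0.89), Gjb1 (0.87) and Chchd10 (0.87), and for the other 4 members r was at most 0.92.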

How the data were processed

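Values for 30879 genes and 2590 cells were deposited as natural log values: the authors scaled the UMIs of every cell to 10000, added 1 and took the log. Per the submitters' processing notes, Trim Galore 0.4.3, STAR 2.5.3a and Seurat were used with GRCm38 (mm10), and the handling of reads that match several genes is not given in the sources used here. UMIs were recovered from the values (100% whole within 0.01) and cells of at least 1000 UMIs were kept (2035). Tissue and TFCO cells were clustered separately with scanpy 1.11.5 (2000 variable genes, 30 components, 15 neighbours, Leiden resolution 1), without 70 member and list genes and without genes above a barcode correlation of 0.05. Cells were named from marker lists, and these classes can differ from those of the study. How clusters were named, which cells were set aside, the separate clustering and the barcode filter were settled after clusters were seen. A tissue cluster needed an own marker among its 10 leading genes, and TFC-like cells in which the erythroid, parathyroid or C cell markers scored above the TFC markers were set aside. Doublets were not called.

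Means over cells of a sample were tested with limma 3.58.1 in R 4.3.3, with trended empirical Bayes on log2(mean UMIs per 10000 + 1), a pseudocount of 1, which understates changes of low genes. All 7 samples entered the fit of group, with 1 weight for tissue and 1 for TFCO samples; genes needed a mean over group means of 0.5. The fit for proliferating cells had sample as a term and took genes that reached 0.1 in 2 means. Benjamini-Hochberg adjustment ran over all genes tested. The tests were checked on simulated data. Named list genes are those past the threshold, at most 5 a list by size of difference, and like genes are the 3 with the highest r. The members and lists were chosen with earlier results of these data known. Sequences and positions are from GENCODE M21 and RefSeq. Alternatives are given in the closing section. Some results of the list of peroxide production are not reported here.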

Additional observations from a re-analysis of the deposited data

How the results depend on the processing

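Of 159 member values in TFCO against tissue over the alternatives, 130 kept direction and side of the threshold. The genes called, 1194, were 697 with at least 2000 UMIs a cell, 148 with UMIs summed, 794 without a filter, 758 after centring, 1879 with equal weights, 609 with thinned cells and 0 with tissue and TFCO cells clustered together, which left 3 and 4 tissue TFC-like cells. The members called, 4, were 2 with UMIs summed and 2 with thinned cells, in both Sod3 and Gpx4, and 0 with cells clustered together, while the 4 with at least 2000 UMIs had Gpx4 in place of Txnrd1 and the 4 without a filter Gpx4 in place of Prdx5. Leaving out 1 sample gave 882 to 1860 genes (1860 without tissue replicate 2, where the spread of the 1 tissue sample left comes from the other groups) and 4 to 6 members. Same-numbered samples deviated from their group means with correlations of −0.455 to 0.009. In groups of 2 samples the deviations are exact opposites, so these correlations cannot decide whether the numbers pair the groups. With the number as a replicate block 1393 genes and 4 members were called. Gpx1 turned to −0.11 with UMIs summed, −0.14 after centring, −0.02 with the replicate block, −0.13 with UMIs summed without the 2 deepest cells of each tissue sample, and ranged from −0.16 to 0.26 when 1 sample was left out. Prdx5 turned to 0.99 with cells clustered together.

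In late against early TFCOs 0 members were called throughout, and the 1 gene became 5 without proliferating cells, 399 with the likeness of late replicate 2 and early replicate 1 as a term, 1 with the replicate block, and 1 to 345 with 1 sample left out (345 without early replicate 1). Sod2 turned to −0.01 with at least 2000 UMIs, −0.06 with at least 500 and −0.03 with thinned cells, Gpx3 to −0.01 with cells clustered together, and Prdx1 ranged from −0.01 to 0.15 with 1 sample left out. For proliferating cells, the 308 genes were 478 with UMIs summed, 172 with 2 markers, 61 without a filter and 179 to 310 with 1 sample left out. The 1 member was 0 with 2 markers, 0 without a filter and 0 to 1 with 1 sample left out. Sod1 ranged from −0.02 to 0.07 with 1 sample left out. Sod2 turned to 0.02 with 2 markers, Gpx1 to −0.07 with 5 markers and −0.12 with proliferating clusters, Gpx3 to −0.05 with 5 markers, Gpx4 to 0.14 with both copies added and Prdx5 to −0.15 with 5 markers and −0.19 with proliferating clusters. The interaction gave 0 to 63 genes (63 without early replicate 1) and 0 members, with Sod1 between −0.18 and 0.17 and Sod3 between −0.13 and 0.19. The cause of these changes was not tested, apart from the few cells left by clustering together. In tissue TFC-like cells, Sod2, Cat, Gpx3 and Txnrd1 rest on 3 to 52 UMIs a sample, which limits what could be detected.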
